A study of Homo sapiens with 7 samples.

Results

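The windows described here are the 465 autosomal segments of 250 kb, of 8437 tested, that replicated early in both K562 and U2OS cells. A window was a member when its mean log2 ratio of early over late nascent DNA ranked at 0.75 or more (0 latest, 1 earliest) on all 7 arrays, with at least 3 probes on each. Members covered 116.25 Mb and made up 5.51% of the tested windows. Members were chosen by the measured log ratios of all 7 arrays, which are therefore given as a description. Fits of these ratios over all windows are printed for completeness, and nothing is read from the member counts. Another 462 windows ranked at 0.25 or less on all 7 arrays and served as the late contrast.

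K562 is a suspension line from chronic myeloid leukaemia and U2OS an adherent line from osteosarcoma, each grown without any further treatment named in the labels. Cells of every sample took up bromodeoxyuridine, a thymidine analogue that marks newly made DNA, at 50 µM. By DNA content, 80000 fixed cells were then sorted into S-phase fractions, an early and a late one. Nascent DNA was recovered with an antibody and amplified genome-wide. Early DNA carried Cy3 and late DNA Cy5, and both were hybridised to the same oligonucleotide array. K562 was hybridised on 3 arrays, 1 each after a new and an old cell sorting method and 1 on a format labelled 44k, and U2OS on 4 arrays, 2 labelled manual and 2 labelled automated. The dyes were not swapped on any array. The labels do not say that the arrays came from separate cultures, so p-values measure the spread between these arrays only.

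Mammalian chromosomes are copied in a set order: clusters of origins fire together in large domains, so neighbouring sequences share a replication time. Early domains usually hold active chromatin and many expressed genes, and late domains hold gene-poor chromatin near the nuclear lamina. Part of the order differs between cell types and part is shared by most of them. Windows early in both a blood and a bone tumour line belong to the second part as far as a pair of lines can show it.

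Each window was read through oligonucleotides of 60 bases. The probes shown here come from the members placed 3 to 7 by highest lowest rank, and from a pair of late windows. They are given with hg19 positions, because the timing values are averages over such sequences. In the order given they lie at chr2:113007764-113007823, chr17:62367367-62367426, chr18:9355850-9355909, chr2:38599276-38599335, chr6:35648370-35648429, chr5:63640694-63640753 and chr5:7418140-7418199.
ZC3H8 probe, early: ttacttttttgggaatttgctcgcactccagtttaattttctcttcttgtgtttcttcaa
probe without a gene name, early: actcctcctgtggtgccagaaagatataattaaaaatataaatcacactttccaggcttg
TWSG1 probe, early: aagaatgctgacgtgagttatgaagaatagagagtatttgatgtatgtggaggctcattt
ATL2 probe, early: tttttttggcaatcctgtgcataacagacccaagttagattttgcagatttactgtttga
FKBP5 probe, early: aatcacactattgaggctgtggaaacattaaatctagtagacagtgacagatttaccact
RNF180 probe, late: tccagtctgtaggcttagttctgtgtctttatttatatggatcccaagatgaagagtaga
ADCY2 probe, late: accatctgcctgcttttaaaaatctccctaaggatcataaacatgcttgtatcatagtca

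The 7 probes differed little in base composition, at 33.3% to 38.3% G and C, and much in timing. The ZC3H8 probe gave log2(early/late) values between 0.02 and 1.90 with a median of 1.56 over the 7 arrays. Its lowest value came from the old-sorting K562 array. The ATL2 probe ran from −0.17, again on the old-sorting array, to 1.80. The FKBP5 probe ran from −0.16 to 1.63 and the TWSG1 probe from 0.23 to 2.45. The chromosome 17 probe without a gene name had the lowest value of the 5 early probes, −0.87 on the old-sorting array, with a median of 0.91. A single probe in an early window could thus fall below 0 on a given array. Both late probes were negative on every array, from −2.75 to −1.60 for RNF180 and from −2.77 to −1.18 for ADCY2.

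Signal differed in brightness between arrays. In members, the median early-channel signal over local background was 472 units on the new-sorting K562 array, 123 on the old-sorting array and 247 on the array labelled 44k. It was 116 and 115 on the manual pair and 418 and 294 on the automated pair. Late-channel signal well above background, by the scanner software's test, was found for 2.74% of member spots on the array labelled 44k and for 95.5% on the first automated array. The windows held a median of 19 probes on the 6 larger arrays and 6 on the array labelled 44k. Of the 465 members, 44 had only 3 or 4 probes there. The early control locus of the labels, BMP1, lay in a window (chr8:22000001-22250000) whose rank ran from 0.461 to 0.920 and which was not a member. The late control, DPPA2 (chr3:109000001-109250000), ranked between 0.0234 and 0.345.

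After background correction and centring on the array median, the members' median log2(early/late) was 0.98 on the new-sorting K562 array, 0.56 on the old-sorting array and 0.82 on the array labelled 44k. On U2OS it was 0.65 and 0.60 on the manual pair and 1.03 on each automated array. The 3 dimmest arrays in the early channel, old-sorting K562 and both manual U2OS arrays, thus gave the 3 lowest medians; the part of brightness in this order was not tested. Members spanned 0.73 to 1.39 on the new-sorting array, 0.31 to 1.17 on the first manual array and 0.22 to 1.29 on the second, ranges whose lower end the rank rule set. The median of late windows was −2.36 on the new-sorting array and −0.84 on the first manual array.

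**Figure D1:**
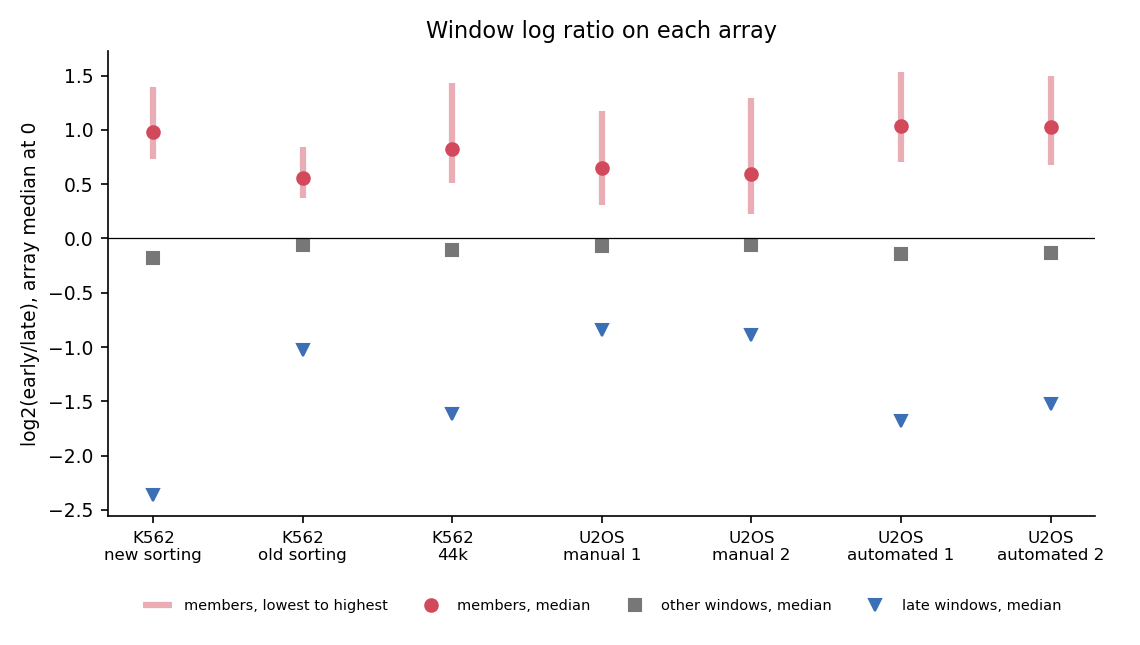
Log2(early/late) of 250-kb windows on each array, centred on the array median. Circles give the member median and bars the lowest to highest member; squares and triangles give the medians of the other and of the late windows. Member medians lay between 0.56 and 1.03, and late medians between −2.36 and −0.84.

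Both channels contributed to the member values. On the new-sorting K562 array the early channel read 472 units in members and 262 elsewhere, and the late channel 229 in members and 321 elsewhere. On the first automated U2OS array the corresponding pairs were 418 and 241 for the early channel and 143 and 215 for the late channel. On the old-sorting K562 array the early-channel difference was smaller, at 123 against 102 units, and the late channel read 125 against 172. Members thus read above other windows in early and below them in late nascent DNA, in values that the rule itself used. Single probes followed their window in part: 60.3% of member probes lay in the top 25% of probes on the old-sorting array and 73.4% on the second automated array. Outside members this share was 23.7% to 24.2%. The rule averaged these same probes, so the shares too are a description.

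Holding out each array in turn gave the part of the pattern that an array did not choose itself. Of the 523 windows early on the 6 arrays other than new-sorting K562, 88.9% were early on that array too, beside 25% of all windows by construction of the rank. The share was 75.7% of 614 windows for the old-sorting K562 array and 79.5% of 585 for the array labelled 44k. For U2OS it was 97.3% and 92.3% on the manual pair and 92.3% and 92.8% on the automated pair. Windows held out fell short of the threshold most often on the old-sorting array. Even there, 99% of them ranked above 0.5.

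The members were a minority of what was early in either line. Windows early on all 3 K562 arrays numbered 1124, and members were 41.4% of them. Windows early on all 4 U2OS arrays numbered 1198, and members were 38.8% of these. Windows early on all K562 arrays with a mean U2OS rank under 0.5 numbered 129, and 91 windows showed the reverse. Most windows early in a single line were hence above the middle in the other line without reaching its top 25% on every array. Over all tested windows the mean ranks of both lines had a Spearman correlation of 0.694, and within members 0.133. The second value is over ranks that the rule limited to 0.75 and above.

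**Figure D2:**
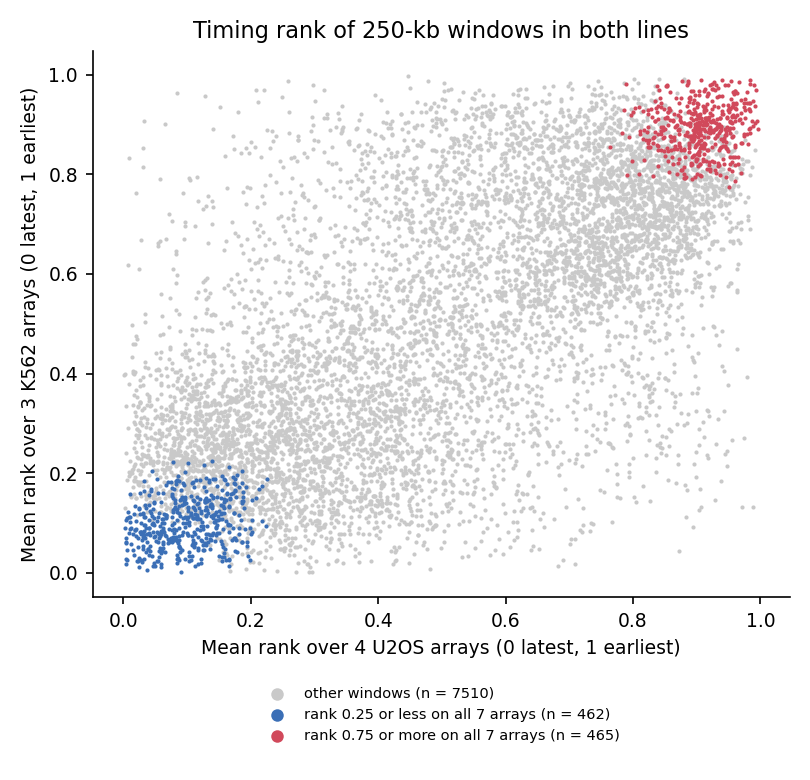
Mean timing rank of each of the 8437 windows over the 4 U2OS arrays (horizontal) and the 3 K562 arrays (vertical), 0 latest and 1 earliest. The 465 members (red) fill the upper right corner, the 462 late windows (blue) the lower left, and grey windows join both along the diagonal.

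The 10 members with the highest lowest rank were led by a window inside ASAP1, which encodes a regulator of the small GTPase Arf, at chr8:131250001-131500000. Its rank was 0.974 on the new-sorting K562 array, 0.982 on the old-sorting array and 0.981 on the array labelled 44k. On U2OS it was 0.981 and 1.0 on the manual pair and 0.979 and 0.998 on the automated pair. The next window (chr8:141750001-142000000) lay in PTK2, the gene of focal adhesion kinase, with a lowest rank of 0.965. Its log2(early/late) was 1.07 ± 0.25 (SD, n = 3) on the K562 arrays, against 1.13 ± 0.14 (SD, n = 4) for U2OS. The groups overlapped, as they did for the other windows among the 10.

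The third window, chr2:113000001-113250000, held TTL, the tubulin tyrosine ligase, with ZC3H6 and ZC3H8, which encode zinc finger proteins. Its log2(early/late) was 1.1, 0.81 and 1.17 on the new-sorting, old-sorting and 44k arrays of K562. It was 0.92 and 0.86 on the manual pair and 1.33 and 1.21 on the automated pair. The ZC3H8 probe printed above belongs to this window. The fourth, chr17:62250001-62500000, held DDX5, an RNA helicase, and POLG2, the accessory subunit of the mitochondrial DNA polymerase, beside MILR1 and TEX2. It read 1.19, 0.61 and 1.29 in K562 in the same order, 0.96 and 0.92 on the manual pair and 1.34 and 1.33 on the automated pair. In both windows the old-sorting K562 array gave the lowest ratio while its rank stayed at 0.997 and 0.932.

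The remaining members of the 10 had lowest ranks between 0.914 and 0.927. They included a window with ANKRD12 and TWSG1 on chromosome 18 (chr18:9250001-9500000), where TWSG1 encodes a secreted regulator of bone morphogenetic proteins. Others held ATL2 (chr2:38500001-38750000), an atlastin that fuses membranes of the endoplasmic reticulum, and ARMC12 with FKBP5 (chr6:35500001-35750000), a co-chaperone of steroid receptors. SCMH1 (chr1:41500001-41750000), a polycomb group gene, was alone in its window. Another held MCU, the pore of the mitochondrial calcium uniporter (chr10:74250001-74500000). MTMR12 and ZFR completed the set (chr5:32250001-32500000). Over the 10 windows, mean log2(early/late) ran from 0.82 to 1.07 in K562 and from 0.90 to 1.14 in U2OS. In all, 22 members ranked at 0.90 or more on every array.

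The threshold cut through a continuum. Just inside it lay windows with ACAT1, ATM and NPAT (lowest rank 0.751), with TSN, and with ARHGAP17, SLC5A11 and TNRC6A (both 0.75). Just outside lay USP32 (0.7496), the window of COA1, HECW1 and STK17A (0.7495) and that of CEP20, MYH11 and NDE1 (0.7495). The USP32 window, for example, ranked at 0.994 on the second manual U2OS array and missed the rule on the old-sorting K562 array alone. Members with a lowest rank under 0.80 numbered 244, and 342 non-members had a lowest rank between 0.70 and 0.75.

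Members lay next to each other often, though mostly in short stretches. The 465 windows formed 329 runs, of which 235 were a single window, 68 had 2 windows and 15 had 3. Members had 900 tested neighbours, where a window adjacent to 2 members was counted for each. Of these neighbours 30.2% were members, beside 5.51% of all windows. The late windows gave a like picture, with 318 runs and a longest run of 6 windows. Adjacent windows of a profile that changes slowly share their value, so these counts describe domains and not independent events.

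The longest run of members had 7 windows on chromosome 1 (chr1:109000001-110750000) and 35 protein-coding genes. It held the glutathione transferase genes GSTM2 to GSTM5, which detoxify electrophiles, the proteasome subunit PSMA5, the sorting receptor SORT1, the colony-stimulating factor CSF1 and the splicing factor PRPF38B. Its mean log2(early/late) was 1.0, 0.56 and 0.81 on the new-sorting, old-sorting and 44k arrays of K562, 0.84 and 0.75 on the manual pair and 1.11 on each automated array. Runs of 5 windows lay at chr1:40500001-41750000, with SCMH1, NFYC and the ceroid lipofuscinosis gene PPT1, and at chr2:9000001-10250000, with the sheddase ADAM17 and YWHAQ. The second of these averaged 0.97 ± 0.29 (SD, n = 3) on the K562 arrays, against 0.80 ± 0.15 (SD, n = 4) for U2OS. Runs of 4 windows included MCU and PPP3CB at chr10:74250001-75250000 and ATL2, SOS1 and SRSF7 at chr2:38500001-39500000. In none of these 5 runs were the arrays of K562 and U2OS separated.

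Rank fell slowly with distance from a run. The first window outside is below the threshold on some array by construction, and its median rank was still 0.75 to 0.82 over the 7 arrays. At 1 Mb the medians were 0.697 to 0.767, and at 3 Mb 0.567 to 0.630. On all 7 arrays the members thus lay in neighbourhoods above the middle of the profile. Around late runs the medians were 0.177 to 0.235 in the first window outside, 0.326 to 0.383 at 1 Mb and 0.389 to 0.424 at 3 Mb. At each of these distances early surroundings stayed above 0.5 and late ones below it.

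**Figure D3:**
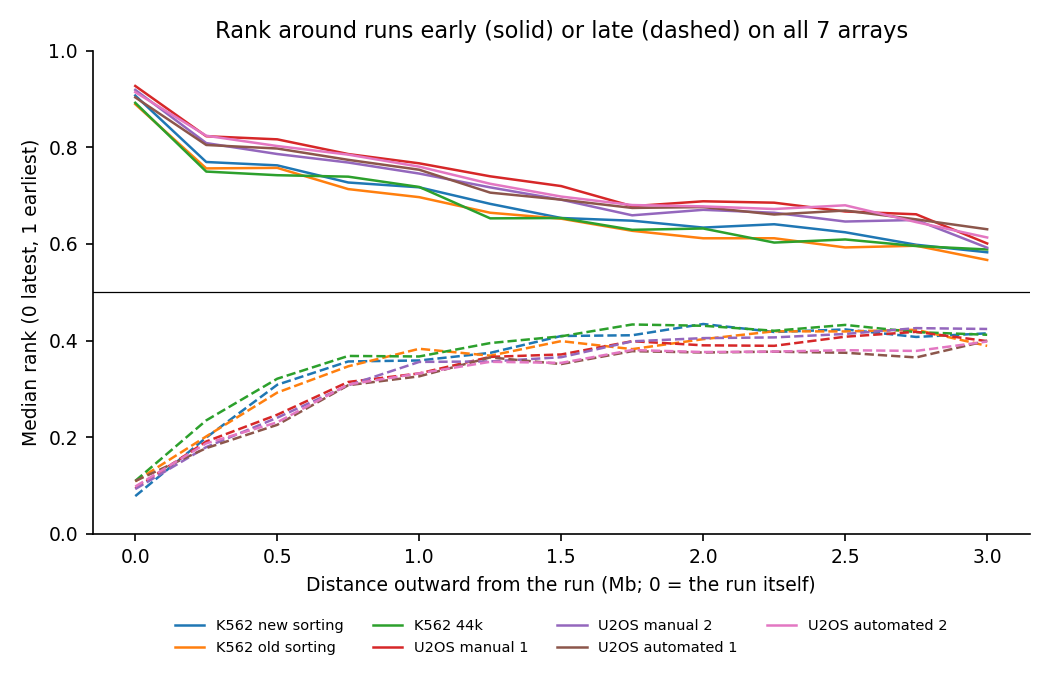
Median rank of the windows at each distance outward from runs of members (solid) and of late windows (dashed), both sides of each run pooled, 1 line per array. At 3 Mb the solid lines lie between 0.567 and 0.630 and the dashed lines between 0.389 and 0.424.

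Members were not spread evenly over chromosomes. Chromosome 1 held 86 of its 743 windows (11.6%), followed by chromosome 15 (8.71%), chromosome 17 (8.66%) and chromosome 2 (8.36%). Chromosome 13 held a single member of 288 windows (0.347%), with TPT1, a translationally controlled protein, GTF2F2, a subunit of a general transcription factor, and SLC25A30. Chromosome 4 held 6 of 509 windows (1.18%). Chromosome 13 had the fewest genes per window of any autosome, with a mean of 1.32.

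Chromosome 19 stood apart from that ordering. It had the most protein-coding genes per window, 5.64 on average, yet 3 of its 210 windows (1.43%) were members. These held ACSBG2, MLLT1 and RFX2 (chr19:6000001-6250000), the calcium channel gene CACNA1A (chr19:13500001-13750000), and IZUMO2, MYH14, VRK3 and ZNF473 (chr19:50500001-50750000). The chromosome was early as a whole: its median rank was 0.58 to 0.69 over the arrays, and 61.4% of its windows lay above 0.5 on all 7. In the top 25% on all K562 arrays were 3.81% of its windows, beside 13.3% of all windows, and on all U2OS arrays 5.71%, beside 14.2%. With the deposited log ratio, or after a loess fit, 2 of the 210 windows were members, and without background correction 1 was. Leaving out any single array gave 3 or 4.

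**Figure D4:**
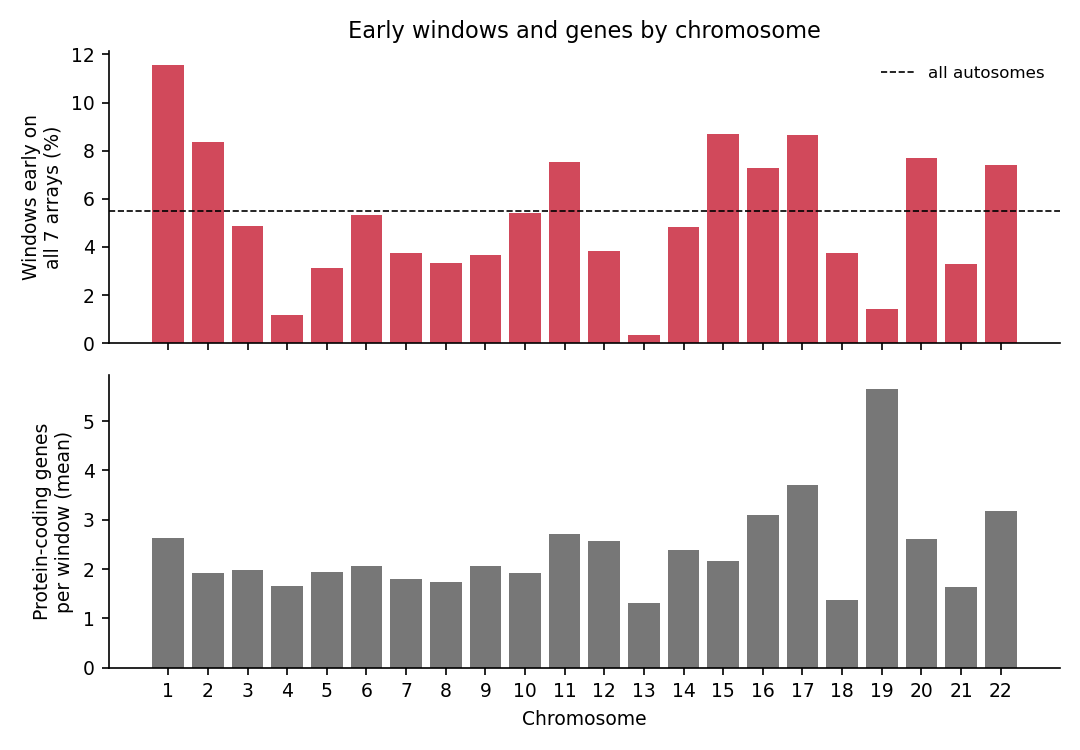
Percentage of tested windows early on all 7 arrays (top; dashed line, all autosomes) and mean number of protein-coding genes per window (bottom) for each autosome. Chromosome 1 reached 11.6%, whereas chromosome 19, with 5.64 genes per window, reached 1.43%.

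Genes were denser in members than in all other windows pooled, but not than in windows just below the threshold. Members held a median of 3 protein-coding genes (quartiles 2 and 4), other windows 2 and late windows 1. The 342 non-members with a lowest rank between 0.70 and 0.75 also held a median of 3 genes. Their mean was 3.41 genes, beside 3.17 in members. The median was higher in members than in the other windows on 18 of 22 chromosomes, equal on 2 and lower on 2. No protein-coding gene was named in 1.29% of members, 12.5% of other windows and 27.3% of late windows. Among the 342 windows just below the threshold this share was 0.877%. The 6 members without a named gene included chr3:193500001-193750000, whose lowest rank was 0.913, and chr8:129000001-129250000. A late window thus lacked a gene far more often than an early window did.

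The share of members rose with the number of genes only up to a point. It was 0.601% of 999 windows with no gene, 2.27% with 1, 6.80% with 2, 10.2% with 3, 10.9% with 4 and 12.6% with 5. It then fell to 10.4% with 6 or 7 genes, 4.85% of 206 windows with 8 to 10, and 1 of 68 windows (1.47%) with 11 or more. Windows with 8 or more genes were rarely late: none of these 274 windows was late on all 7 arrays. They were early to a moderate degree, since 82.5% of windows with 8 to 10 genes and 75% with 11 or more lay above rank 0.5 on all 7 arrays. The most gene-dense windows thus sat in the earlier part of the profile but below its top 25% on at least 1 array.

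The lines differed in this respect. Of windows with 11 or more genes, 1.47% were in the top 25% on all 3 K562 arrays and 16.2% on all 4 U2OS arrays. At 5 genes the shares were 24.7% and 34.5%, and at 3 genes 22.8% and 23.8%. The difference between lines was not tested, because the rule used these ranks. Line also cannot be told apart here from slide, sorting, format or handling. With chromosome 19 left out, the member share was 13.7% at 5 genes, 6.17% at 8 to 10 and 1.92% at 11 or more. Without the old-sorting K562 array, 20 of the 274 windows with 8 or more genes were early on the remaining arrays, against 11 with all arrays. Removing any other array gave 11 to 14, and other ratios gave 8 to 13.

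The 11 members with 8 or more genes named clusters of related function in several cases. The window of 16 genes (chr1:161000001-161250000) included USF1, which encodes a basic helix-loop-helix factor, and FCER1G, which encodes an immunoglobulin receptor chain. Its mean rank over K562 arrays was 0.794 and its lowest rank 0.762. Another (chr16:56500001-56750000) held the metallothionein genes MT1A, MT1F, MT1G, MT1X, MT2A and MT3, which bind zinc and copper. Further windows held 9 keratin genes of chromosome 12, HLA-DPA1 and HLA-DPB1 with RPS18 on chromosome 6, and the chemokines CCL17, CCL22 and CX3CL1 on chromosome 16. The smallest of the lowest ranks in this set was 0.762 and the largest 0.828. Of all 465 members, 244 had a lowest rank under 0.80.

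**Figure D5:**
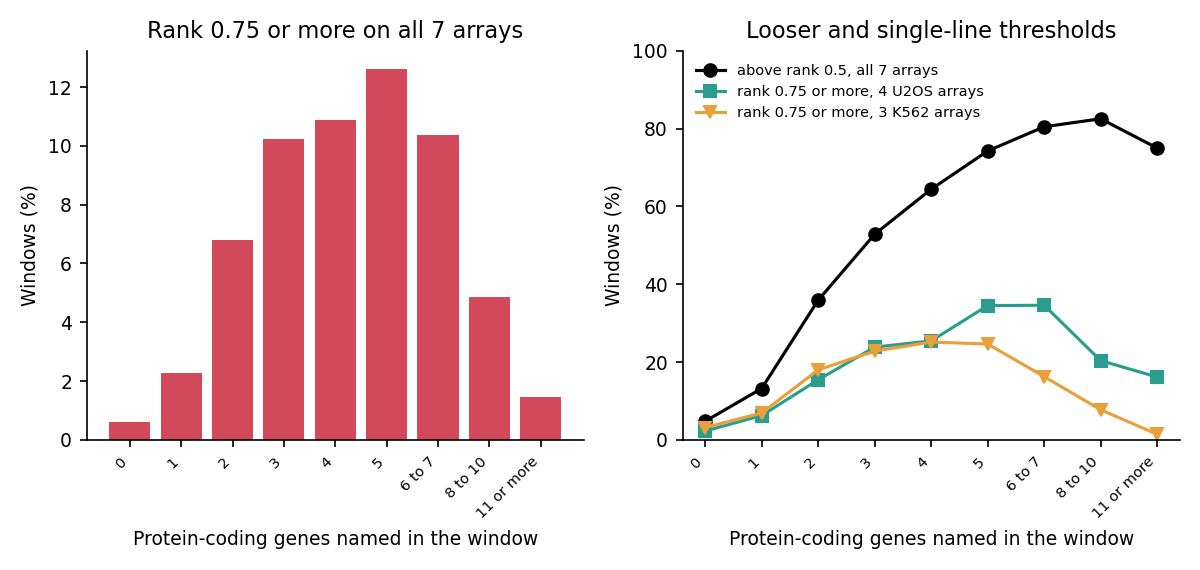
Left, percentage of windows at rank 0.75 or more on all 7 arrays by the number of protein-coding genes named in the window. Right, percentage above rank 0.5 on all 7 arrays (circles), and in the top 25% on the 4 U2OS (squares) or the 3 K562 arrays (triangles). The left panel peaks at 5 genes with 12.6%.

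The Spearman correlation of gene number and rank over all tested windows was between 0.435 and 0.547 over the 7 arrays. Within members it was between −0.228 and −0.0137, over ranks that the rule limited to 0.75 and above, so the values are not comparable. Probe base composition was nearly equal, with a median of 36.5% G and C in members and in other windows and 36.3% in late windows. Probes spanned a narrow range, and the composition of whole windows was not computed. In 10 groups of windows by probe G and C, group medians ran from 35.3% to 37.9%. The median rank over the arrays was 0.414 to 0.445 in the lowest group and 0.626 to 0.798 in the highest. Late windows made up 5.69% and 1.54% of these groups, and members 5.09% and 5.92%. Probes inside named genes made up a median of 81.8% of member probes and 81.3% elsewhere. Members lay less often near chromosome ends, with 4.95% within 5 Mb of an end against 9.14% of other windows. Late windows had a like share, 4.76%. Members near an end included HTT, the huntingtin gene (chr4:3000001-3250000), CREBBP and TRAP1 (chr16:3750001-4000000) and SMCHD1 (chr18:2750001-3000000).

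Of 15417 protein-coding genes placed in a tested window, 1268 (8.22%) lay in members. Beside that share, housekeeping groups stood close to the background. Members held 3 of 45 genes of origin licensing and the replication fork: CDC45, a part of the replicative helicase, POLD3, a subunit of DNA polymerase delta, and RFC1, the large subunit of the clamp loader. The CDC45 window ranked at 0.949 on average and no lower than 0.817. ORC1 (mean rank 0.925) missed the threshold with a lowest rank of 0.695, and ORC4, of the same origin recognition complex, lay in a late window with a mean rank of 0.0863. DBF4, the activator of the CDC7 kinase, had a mean rank of 0.168. Genes of the replication machinery were therefore found from the early to the late end of the profile.

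Gene products of protein synthesis and degradation gave like shares. Members held 5 of 62 cytosolic ribosomal protein genes (8.06%), with RPL5 at a mean rank of 0.925, RPL9 at 0.912 and RPS18 at 0.883, whereas RPL22 (0.895) fell short on an array and RPS12 had a mean rank of 0.374. RPL9 and RFC1 shared a window. Proteasome subunits numbered 4 of 35 (11.4%), among them PSMD1 at 0.909 and PSMA5 at 0.883, while PSMD14 and PSMA8 averaged 0.398 and 0.295. Aminoacyl-tRNA synthetase genes numbered 3 of 38 (7.89%): AARS2 at 0.937, SARS1 at 0.883 and PARS2 at 0.846. FARS2 averaged 0.166 and WARS2 0.0753, the latter in a late window. With counts this small, a change of 1 or 2 genes moves a share across the background.

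Splicing factors had 7 of 54 genes in members (13%): SNRPE at a mean rank of 0.950, PRPF38B at 0.949, SNRPG at 0.942, SRSF1 at 0.927, SRSF7, PRPF40B and SRSF4. With the deposited log ratio the count was 4, and with the normexp ratio 8. SNRPN, an imprinted gene of small nuclear ribonucleoproteins, averaged 0.205 and SNRPB2 0.185. RNA polymerase II and mediator genes numbered 3 of 37 (8.11%), with MED27 at 0.882, POLR2D at 0.877 and MED19 at 0.869, and 6 with the deposited log ratio. MED15 (0.921) missed the threshold, with a lowest rank of 0.647. Complex I of the respiratory chain had 2 of 32 genes in members, among them NDUFV2 at 0.915, and 1 with the deposited ratio. Of 19 cyclin and cyclin-dependent kinase genes, CCNT1, the cyclin of the elongation factor P-TEFb, was the only member gene (0.909), and CDK1 had a mean rank of 0.438. The median of mean ranks lay between 0.690 and 0.740 in these housekeeping groups, beside 0.694 over all named genes.

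Lineage genes of the cells of origin were included to see whether windows shared by both lines left them out. For the blood lineage of K562, 3 of 22 erythroid and megakaryocyte genes were in members: SPTB, which encodes beta-spectrin, at a mean rank of 0.915, LMO2, a cofactor of blood transcription factors, at 0.913 and ITGB3, the platelet integrin beta chain, at 0.857. The SPTB window ranked no lower than 0.769 on any array, U2OS included. ANK1 (0.885) missed the threshold with 0.712. Of 24 skeletal and mesenchymal genes none was in a member window. PDGFRB came nearest, with a mean rank of 0.855 and a lowest rank of 0.733, followed by ALPL (0.787), SPARC (0.745) and COL1A1 (0.696). PRRX1 (0.0755) and TBX15 (0.0596) lay in late windows. The median of mean ranks in this list was 0.387.

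The tissue-restricted families had these counts, to be read beside the 8.22% of all genes. None of 50 olfactory receptor genes, 41 GABA and glutamate receptor genes or 33 HOX genes was in a member. The medians of their mean ranks were 0.462, 0.227 and 0.499. These genes lay in 37, 41 and 6 windows, so the HOX count rests on few windows and nothing is read from it. The highest receptor genes were OR2C1 at 0.882 and GRIN2C at 0.826, and HOXB3, HOXB4, HOXB7 and HOXB8 shared a window at 0.806. GRM8 (0.0725) and GRIA4 (0.118), both glutamate receptors, lay in late windows. With the deposited ratio 1 olfactory receptor gene was in a member. Of 47 cadherin and protocadherin genes, CDH1, the epithelial cadherin, at 0.919 and CDH5, the endothelial cadherin, at 0.863 were in members, which made 4.26%, and CDH9 averaged 0.112. Normexp-based ranks gave 5 such genes and the deposited ratio 3. Of 28 voltage-gated potassium and sodium channel genes, 2 (7.14%) were in members, among them SCN8A at 0.906, while KCNB2 averaged 0.0730. With the deposited ratio the count was 1.

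Of 65 keratin and keratin-associated genes, 15 (23.1%) were in members, but these sat in only 2 windows. One on chromosome 17 (chr17:38750001-39000000) held KRT10, KRT24, KRT25, KRT27, KRT28 and KRT222, with a mean rank of 0.926 and a lowest rank of 0.839. The other, on chromosome 12 (chr12:53000001-53250000), held KRT1, KRT2, KRT3, KRT4 and KRT73 among 9 keratin genes, with a mean rank of 0.881. Keratin-associated genes of chromosome 21, such as KRTAP19-3, had a mean rank of 0.0424. The deposited ratio placed 27 of the 65 genes in members. Neighbouring genes of a cluster share a window and count as few independent observations.

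Promoters of member genes did not stand apart from those of genes in other tested windows in the features searched. For 76.9% of 255 late genes a RefSeq promoter (GRCh38.p14) was found, fewer than 80%, so late values are given without a comparison. Such promoters were found for 1023 of 1267 member genes (80.7%) and for 80.5% of genes in other tested windows. In the 250 bases before the start, the median content of G and C was 63.6% in both sets, and the median number of CpG dinucleotides was 20 and 19. A GC box (GGGCGG on either strand) was present in 60.4% of member promoters and 60.8% of the others, beside 42.3% of all promoters in the table. CCAAT was present in 34.6% and 34.2%, TATAAA in 6.94% and 7.71%, CCGGAAG in 12.4% and 12.9% and TGCGCA in 9.09% and 9.65%. In the 196 late promoters found, the median content of G and C was 56.6% and the median number of CpG dinucleotides 11.5. Of them 38.8% held a GC box, 30.6% CCAAT, 15.3% TATAAA, 7.65% CCGGAAG and 3.57% TGCGCA. The letters of TTL and FKBP5, both from the highest-ranked members, show how different promoters of such windows can be, with GC boxes in capitals. TTL lies on the plus strand (GRCh38.p14, chr2:112481906-112482155) and FKBP5 on the minus strand (chr6:35728584-35728833).
TTL: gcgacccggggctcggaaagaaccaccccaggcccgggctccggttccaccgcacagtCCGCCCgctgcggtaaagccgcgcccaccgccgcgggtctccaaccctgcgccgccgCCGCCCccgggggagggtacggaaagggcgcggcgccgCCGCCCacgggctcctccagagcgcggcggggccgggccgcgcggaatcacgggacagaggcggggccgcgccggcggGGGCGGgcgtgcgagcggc
FKBP5: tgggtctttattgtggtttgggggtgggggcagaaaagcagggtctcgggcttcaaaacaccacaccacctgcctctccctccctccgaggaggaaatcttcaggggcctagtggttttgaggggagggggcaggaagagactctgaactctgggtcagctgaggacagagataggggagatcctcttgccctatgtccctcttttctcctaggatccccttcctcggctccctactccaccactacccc

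The TTL promoter had 81.2% G and C, 43 CpG dinucleotides and 4 GC boxes. The FKBP5 promoter had 57.6% G and C, 3 CpG dinucleotides and no GC box, although its window ranked at 0.923 or more on every array.

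Total nascent DNA signal, the mean of both channels on the log2 scale, was not used to choose the windows and could be tested. It was taken over probes common to all 7 arrays and centred on each array's median window. Members were close to that median on every array, with medians of 0.12, −0.06 and 0.09 on the new-sorting, old-sorting and 44k arrays of K562, 0.06 and 0.07 on the manual pair and 0.12 and 0.05 on the automated pair. Between K562 and U2OS, 84 of 459 members measured (18.3%) differed by at least 0.25 with a limma adjusted p under 0.05, beside 23.1% of all windows. Of these, 38 were higher in K562 (8.28%, beside 11.5% of all windows) and 46 lower (10%, beside 11.7%). The median difference over members was −0.02, with quartiles of −0.19 and 0.21. Members thus shared their timing between the lines while part of them differed in total signal, at a share no higher than the background. No slide held arrays of both lines, and each label of sorting, format or handling occurred in a single line. Differences between the lines therefore cannot be told apart from slide, sorting, format or handling.

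The count depended on single arrays and on the signal used. Without the new-sorting K562 array 26 members passed (5.66%, beside 5.93% of all windows). Without the array labelled 44k 30 passed (6.54%, beside 9.94%), and without the second automated U2OS array 50 (10.9%, beside 13.7%). The share over all windows thus fell along with that of the members. With the scanner software's processed signals 58 members were higher and 27 lower in K562, beside 909 and 977 of all 7807 windows. With plain background subtraction 49 members were higher and 25 lower, beside 774 and 773 of all windows. The balance of directions among called members was thus not stable.

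The largest differences were about 2-fold. The window of PPM1F, a protein phosphatase, and TOP3B, a topoisomerase (chr22:22250001-22500000), read 1.75, 1.2 and 1.5 above the array median on the new-sorting, old-sorting and 44k arrays of K562. It read 0.32 and 0.20 on the manual pair and 0.70 and 0.67 on the automated pair. The difference was 1.01 ± 0.17 (SE), 2.01-fold, with an adjusted p of 0.00492. A window on chromosome 1 without a named gene (chr1:234750001-235000000) was higher in K562 by 1.15 ± 0.25 (SE), adjusted p = 0.0124, with 1.58 on the old-sorting array, 0.51 and 0.41 on the other K562 arrays and −0.48 to −0.12 on U2OS. This window rested on 3 common probes.

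Lower in K562 was the window of DCAF4, DPF3 and ZFYVE1 (chr14:73250001-73500000), which read −0.04, −0.43 and −0.09 in K562 and between 0.60 and 1.53 in U2OS. The fitted difference was −1.2 ± 0.22 (SE), adjusted p = 0.00732. The window of MPO, EPX and LPO, peroxidases of granulocytes and secretions, with MKS1, RNF43 and TSPOAP1 (chr17:56250001-56500000), read −0.50, −0.54 and −0.36 in K562. It read 0.15 and 0.06 on the manual pair and 1.15 and 0.93 on the automated pair. The difference was −1.04 ± 0.25 (SE), adjusted p = 0.0169. Most of the distance came from the automated arrays, and the manual arrays lay nearer to K562. These 4 windows were picked among called members whose 3 K562 and 4 U2OS arrays did not overlap, so that separation adds nothing to the calls. The 4 windows were among 152 members without overlap (33.1%, beside 37.1% of all windows).

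Manual and automated U2OS arrays also differed in the total signal of members. Of 459 members, 127 (27.7%) passed the same threshold, beside 34.7% of all windows. They divided into 71 higher on the automated arrays (15.5%, beside 16.2%) and 56 lower (12.2%, beside 18.5%). Both manual arrays shared a slide and each automated array had its own, so handling and slide cannot be told apart. Leaving out the first manual array gave 81 members (17.6%, beside 22.5% of all windows) and leaving out the second gave 42 (9.15%, beside 13.1%). With the processed signals 62 passed (13.5%, beside 19.4% of all windows), with plain subtraction 77 (16.8%, beside 20.8%), after quantile scaling 82 (17.9%, beside 21%) and with arrays scaled to equal spread 75 (16.3%, beside 20.2%). Automated and manual arrays did not overlap for 335 members (73.0%, beside 70.3% of all windows). The processed signals divided the member calls into 42 higher and 20 lower, beside 704 and 807 of all 7807 windows. Equal spread divided them into 34 higher and 41 lower, beside 694 and 885 of all windows.

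The window of BUB1B, a mitotic checkpoint kinase, EIF2AK4, SRP14 and BMF (chr15:40250001-40500000) read 0.98 and 0.47 on the manual pair and 2.08 and 2.10 on the automated pair. Its difference was 1.37 ± 0.15 (SE), adjusted p = 0.000314. On K562 it read 1.25 and 1.23 on the new-sorting and 44k arrays and 3.23 on the old-sorting array. The MPO window, described above, was higher on the automated arrays by 0.94 ± 0.12 (SE), adjusted p = 0.000477; both comparisons use the U2OS arrays. The window of ADAM17 and YWHAQ (chr2:9500001-9750000) was lower on the automated arrays, at −0.53 and −0.59, than on the manual ones, at 0.22 and 0.19, a difference of −0.76 ± 0.11 (SE), adjusted p = 0.000763. The window of IL21, an interleukin, and BBS12 (chr4:123500001-123750000) was lower by −0.68 ± 0.11 (SE), adjusted p = 0.00139. These 4 windows rested on 4 to 7 common probes each.

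Timing itself was compared between the lines for completeness, although the rule used these ratios. A call needed a difference of 1 log2 unit or more with a limma adjusted p under 0.05. None of the 465 members was called between K562 and U2OS, beside 13.2% of all windows. Member differences ran from −0.45 to 0.35, and 2 members had an unadjusted limma p under 0.05. Members early on all 7 arrays can hardly differ by 1 log2 unit, so nothing is read from these counts. Of all windows, 4.36% were higher and 8.85% lower in K562. The arrays of the lines did not overlap for 5 members, beside 31.2% of all windows. Their median difference, K562 minus U2OS, was −0.04 with quartiles of −0.13 and 0.06. The median over all windows was −0.13.

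On U2OS, 385 of the 465 members had a higher log ratio on the automated than on the manual arrays by a limma adjusted p under 0.05, and none a lower, beside 74.2% of all windows called in either direction, 34.4% higher and 39.7% lower. The pairs of arrays did not overlap for 457 members, beside 87.9% of all windows. Nothing is read from these counts, since the rule used the ratios. The median difference over members was 0.39 on the log2 scale. The window of GRK5, a kinase of G-protein-coupled receptors (chr10:121000001-121250000), read 0.58 and 0.39 on the manual pair and 1.41 and 1.27 on the automated pair. The window of TBCD, a tubulin folding cofactor, and QTGAL (chr17:80750001-81000000) read 0.50 and 0.31 against 1.35 and 1.18. The automated arrays were also the brighter ones; the part of brightness in this shift was not tested. With plain subtraction 48 members were called, all higher, beside 33.1% of all windows. With the deposited log ratio 4 were called (1 higher and 3 lower), beside 15.4% of all windows. With every array scaled to the same spread 57 were called, of which 3 were higher and 54 lower, beside 15.6% of all windows. In rank, which the rule used, the members' median was 0.931 and 0.920 on the manual pair and 0.903 and 0.911 on the automated pair.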

How the data were processed

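The authors deposited scanner tables with spot intensity in 2 channels and a log10 ratio. Per the file headers, these came from Feature Extraction 11.5.1.1 (Agilent), a comparative genomic hybridization protocol and an hg19 design; the submitters' processing notes name version 9.1. In the deposited log10 ratio, Cy5 (late) is divided by Cy3 (early) after background subtraction and dye normalization. Mean spot intensity and median local background, as deposited, were the starting values.

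For the rule, local background was subtracted, each channel was set to at least 10 units, and log2 of Cy3 over Cy5 was averaged per probe, then per window by probe midpoint. Printed log2 values used normexp background correction (offset 50) in limma 3.58.1 (R 4.3.3) and were centred on the array median. Total signal was the mean log2 of both channels. Fits used lmFit and eBayes over all windows with Benjamini-Hochberg adjustment at 0.05, and a difference of at least 0.25 (signal) or 1 (timing between lines); timing between automated and manual arrays had no minimum. The fits were tested on simulated data. Windows without a value in these fits were left out, which removed 6 members from the signal fits.

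Gene names came from the arrays, were matched to RefSeq symbols on the same chromosome (16154 of 23784 autosomal names, 1869 through older names), and only protein-coding genes were kept (15577). A gene was placed in the window that held most of its probes. Named windows were the control loci, the 10 members with the highest lowest rank and the 5 longest runs. The 3 windows on each side of the threshold were also named. Each fit added up to 2 members per direction, with the largest difference among called members whose groups did not overlap. Each gene list added up to 4 genes with the highest and 2 with the lowest mean rank. Other members of a list, and windows named for gene number, chromosome or chromosome end, were chosen after their values were seen. Members and lists were chosen with earlier results of these data known. Array titles give numbers 1 and 2 to both manual and automated arrays. Same-numbered arrays did not deviate together (correlation −0.00765 for timing and −0.0421 for signal), so the numbers do not pair them. The 7 arrays limit the precision. Some genes of the named windows and lists are not reported here.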

Additional observations from a re-analysis of the deposited data

Results flagged for a closer look

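Of 48 sets of values over the 4 U2OS arrays, 3 had an array far from the rest, where chance gives about 1 set in 20. The share of member probes in the top 25% of probes was 73.4% on the second automated array and 69.2%, 69.5% and 69.7% on the others. The share of held-out windows that were early was 97.3% on the first manual array and 92.3%, 92.3% and 92.8% on the others. The USP32 window just outside the threshold read 0.87 on the first manual array and 1.05, 1.07 and 1.08 on the others. The cause was not tested. The 3 K562 arrays were too few for this check.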

How the results depend on the processing

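The number of windows early on all 7 arrays stayed within 1.5 times of 465 under 18 of 22 alternatives. It was 508 with the normexp ratio (408 shared), 470 with the deposited ratio (358 shared), 504 after loess (354 shared) and 326 with common probes alone (229 shared). It moved to 211 with 5 or more probes, 807 at a rank of 0.70, 221 at a rank of 0.80 and 1497 in 100-kb windows on the 6 larger arrays, which is 6.52% of 22953 smaller windows beside 5.51%. Leaving out each array gave 478 to 614. For total signal between the lines, 54 members were called without background correction instead of 84 (11.8%, beside 15.5% of all windows), and 26 to 101 when an array was left out. For total signal between automated and manual arrays, the 127 calls became 62 with processed signals, 77 with plain subtraction, 82 after quantile scaling and 75 with equal spread, where all windows fell from 34.7% to 19.4%, 20.8%, 21% and 20.2%, and 42 to 98 when an array was left out. For timing between automated and manual arrays, the 385 calls became 48 with plain subtraction, 4 with the deposited ratio and 57 with equal spread, and 298 to 338 when an array was left out. A replicate block gave 128 calls in place of 127 for signal and 381 in place of 385 for timing. The cause of these changes was not tested. No alternative called a member in timing between the lines. The slide as a random block could not be fitted, since only 1 slide held 2 arrays; averaging both manual arrays as 1, chosen after seeing the data, gave 86 signal and 0 timing calls between the lines. The alternatives for members on chromosome 19 and for members by gene number were also chosen after seeing the data. Late-channel signal well above background in 2.74% of member spots limits the array labelled 44k.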

Other observations

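Chromosome X was outside the rule. Ranked against the autosomes, 1 of its 477 windows (0.210%) reached 0.75 on all 7 arrays, at chrX:47250001-47500000, with ARAF, a RAF kinase, ELK1, an ETS factor, SYN1, CFP, ZNF157 and ZNF41. Its rank ran from 0.753 to 0.944. At the other end, 2 windows of the chromosome were at 0.25 or less on all 7 arrays. The median position of its windows among the autosomal ones was 0.357 to 0.463 over the arrays.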
